A study of Homo sapiens with 2 samples.

Results

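The genes described here build and watch over the kinetochore, the protein assembly on each centromere to which spindle microtubules attach. They were chosen by name: every protein-coding gene whose symbol starts with CENP and a capital letter, except CENPJ, and 32 named genes of the outer kinetochore, the spindle checkpoint, the chromosomal passenger complex, the shugoshins and the mitotic kinases, ERCC6L among them. This gave 51 genes of the 57773 in the deposited table of all genes, and of the 20325 protein-coding ones. Of the 51 genes, 50 had a read in the TGS24 library and 42 in the Control library.

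Centromeric chromatin, marked by the histone variant CENP-A, carries an inner kinetochore of CENP proteins, which recruits the Mis12, KNL1 and Ndc80 complexes that hold the microtubule. Kinetochores without attachment load MAD and BUB proteins, which hold back CDC20, the activator of the anaphase-promoting complex (APC/C), until all chromosomes are attached. Most genes of this machinery are transcribed periodically, with a peak in G2 and mitosis, so their messenger RNA level in a culture goes with the number of cycling cells.

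RNA was taken from spheroids of the cell line MDA-MB-231, a model of triple-negative breast cancer, kept in medium with 10% serum. The TGS24 library was from a spheroid treated with the compound TGS24, for which only this code name is given, and the Control library was from a spheroid labelled Control. Neither dose nor duration of treatment is stated in the labels. Each group held 1 library, so no difference below has a replicate check, and every interval covers counting error only. The comparison is of these libraries, not of the conditions.

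The TGS24 library held 16145121 reads and the Control library 8570632, and protein-coding genes took 54.1% and 41.3% of them. Of 9 genes that mark MDA-MB-231 cells, 7 could be used and all had reads in both libraries, while VIM and CD44 were left out because the deposited tables disagree on them. The summed level of the 7, in reads per 1000000 of the scaled library (CPM), was 274 CPM in TGS24 and 836 in Control, with 6 of them at least 2-fold lower in TGS24, or 5 when centred within classes of transcript GC content. Of all genes with at least 20 reads over both libraries, 12.7% were at least 2-fold higher in TGS24 and 6.44% lower, and centred in that way 6.04% were lower. Of 11 markers of proliferating cells 10 had enough reads, 3 of them (TOP2A, PCNA and MCM4) at least 2-fold higher in TGS24 and none lower, with a summed level of 801 CPM in TGS24 and 361 in Control. TOP2A held 10778 of their 13078 reads in TGS24 and 1814 of 3056 in Control, and without it the sum was 141 CPM in TGS24 and 147 in Control. Centred within GC classes, TOP2A was at a log2 ratio of 0.90, under 2-fold. By that measure 2 of the 10, PCNA and MCM4, were higher, where 5.37% of all genes were. MCM5, at a log2 ratio of -0.74 (interval -0.97 to -0.52), lay below 0 by less than 2-fold. MKI67 had 44 reads in TGS24 and 18 in Control, and TYMS had 3 and 0. The 3 haemoglobin genes listed as red cell markers summed to 754 CPM in TGS24 and 686 in Control. Summed markers of leukocytes (6.43 and 7.79), fibroblasts (5.45 and 9.08), luminal epithelium (1.90 and 3.78) and endothelium (2.08 and 2.60) were low. KRT8 was at 0 in Control. The luminal marker GATA3 was left out as VIM and CD44 were, and the endothelial marker PECAM1 had no value, so neither is in these sums. The part of these other levels in the results below was not tested.

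A gene was compared between the libraries when it had at least 20 reads over both, which 26 of the 51 genes reached, and 10081 of all genes. It was counted as higher or lower when its log2 ratio of TGS24 over Control was at least 1 in size and its 95% counting interval left out 0. ERCC6L alone of the 26 was higher, where 12.7% of all compared genes were, and PLK1 alone was lower, where 6.44% of all were. The other 24 passed in neither direction. The median log2 ratio of the 26 was 0.12, that of all compared genes -0.0042, and the 26 lay between -1.48 and 3.49. The summed reads of the 51 genes were 5524 in TGS24 and 3199 in Control, a log2 ratio of -0.16 (interval -0.25 to -0.07). Members with at least 200 reads held 4543 and 2733 of these reads. The sum over all genes gave -0.03 and that over all protein-coding genes 0.36. In a bulk sample, fewer cells in mitosis and less messenger RNA per cell cannot be told apart.

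ERCC6L (ENSG00000186871, on chromosome X) encodes PICH, a DNA translocase that coats the ultrafine DNA bridges between separating sister chromatids in anaphase. It had 244 reads in TGS24 and 10 in Control. Scaled to library size this was 14.9 CPM in TGS24 and 1.18 in Control. The log2 ratio, which includes a prior count of 2, was 3.49 (interval without it 2.40 to 5.31), or 11.3-fold higher. Without the prior count it was 3.66. It ranked 6 among the 10081 compared genes from the highest ratio down. No exon base of ERCC6L is shared with another gene in the annotation used. Over all the alternative settings that gave a value for it the log2 ratio stayed between 2.83 and 3.64, and it was counted as higher in each of them.

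PLK1 (ENSG00000166851, chromosome 16) encodes Polo-like kinase 1, which drives mitotic entry, spindle formation and kinetochore attachment. It had 168 reads in TGS24 and 204 in Control, although the TGS24 library was the deeper. The scaled level was 10.3 CPM in TGS24 and 24.1 in Control. With the prior count, the log2 ratio was -1.21 (interval -1.66 to -0.79), or 2.32-fold lower. Exons of ERN2 and of a noncoding gene on the opposite strand cover 12.5% of the PLK1 exon bases, and the labels do not say whether counting used strand. Centred within classes of transcript GC content, the log2 ratio was -0.83 (interval -1.27 to -0.41), under the 2-fold threshold.

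**Figure D1:**
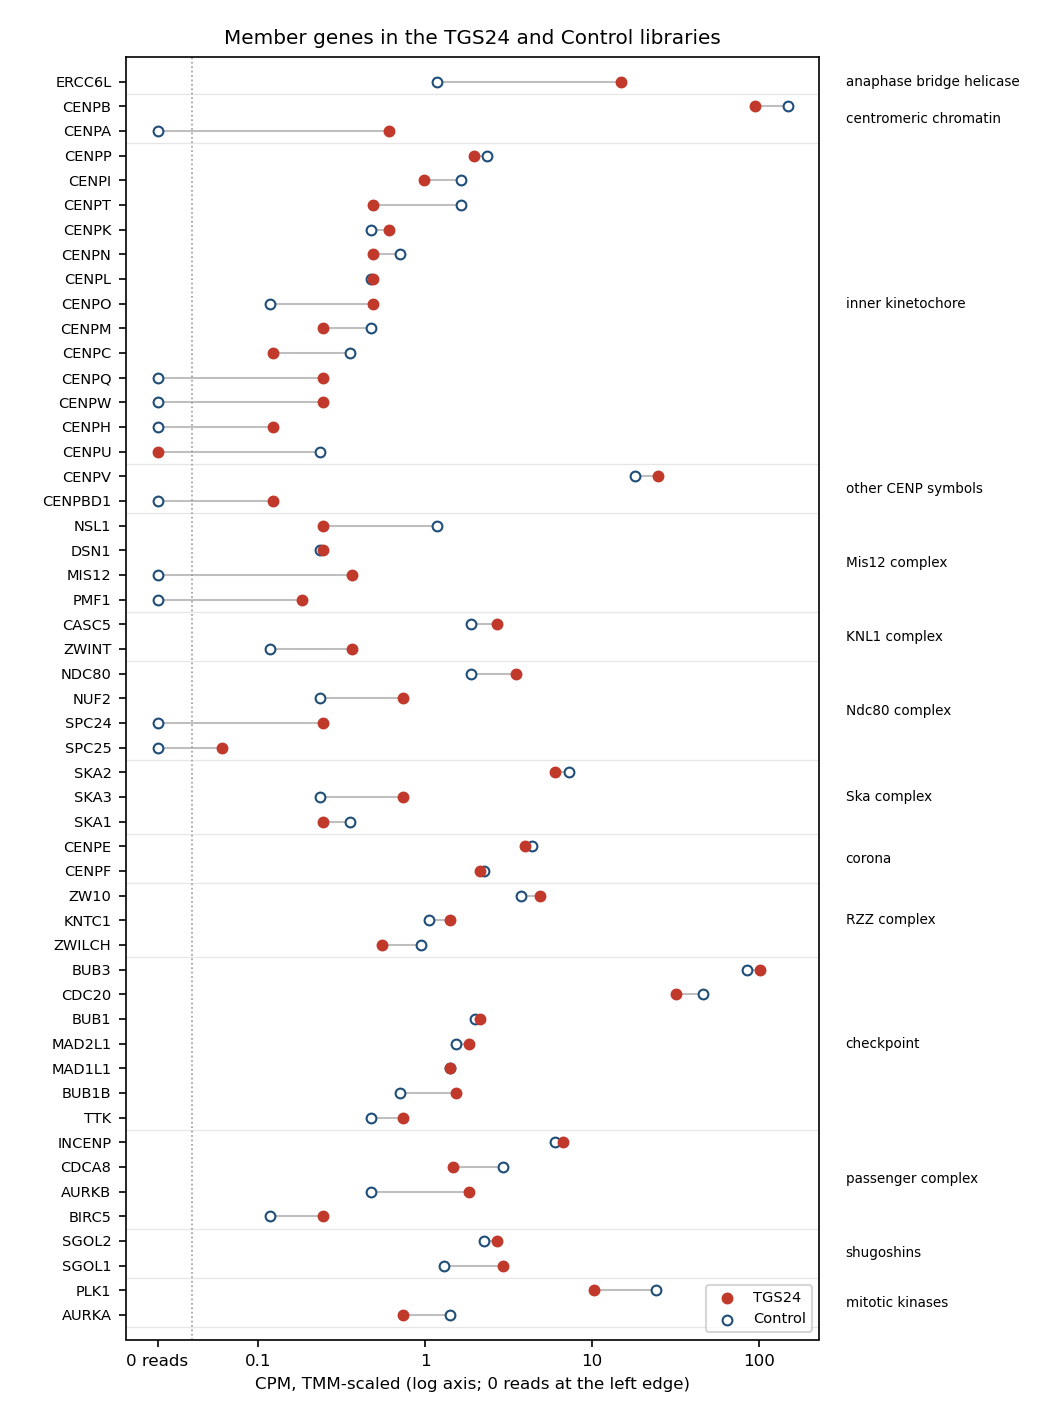
Level of each of the 51 genes in the TGS24 library (filled red) and the Control library (open blue), in CPM after TMM scaling on a log axis, grouped by role, with genes at 0 reads left of the dotted line. ERCC6L has the widest gap among genes with a read in both libraries, 14.9 in TGS24 and 1.18 in Control, and 9 genes are at 0 in Control against 1 in TGS24.

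Promoters of periodic mitotic genes often hold a CHR element (cell cycle genes homology region, TTTGAA), bound by the MuvB core of the DREAM and B-MYB complexes, and CCAAT boxes bound by NF-Y. The promoters of ERCC6L and PLK1 are shown because these genes lay past the threshold in opposite directions, and that of CDC20 because it is the checkpoint target with many reads. Each runs 5′ to 3′ on the gene's strand around the RefSeq start (GRCh38.p14), at chrX:72238978-72239277 on the minus strand for ERCC6L, chr16:23678639-23678938 on the plus strand for PLK1 and chr1:43358731-43359030 on the plus strand for CDC20. Capitals mark TTTGAA and CCAAT on either strand, so that TTCAAA and ATTGG are the same motifs read on the other strand.
ERCC6L: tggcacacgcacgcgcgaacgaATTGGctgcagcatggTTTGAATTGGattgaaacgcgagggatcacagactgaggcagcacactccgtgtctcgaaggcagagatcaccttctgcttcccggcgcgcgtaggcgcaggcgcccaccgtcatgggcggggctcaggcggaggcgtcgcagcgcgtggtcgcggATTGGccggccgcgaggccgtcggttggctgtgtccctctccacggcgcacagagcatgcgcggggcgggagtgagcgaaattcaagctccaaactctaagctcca
PLK1: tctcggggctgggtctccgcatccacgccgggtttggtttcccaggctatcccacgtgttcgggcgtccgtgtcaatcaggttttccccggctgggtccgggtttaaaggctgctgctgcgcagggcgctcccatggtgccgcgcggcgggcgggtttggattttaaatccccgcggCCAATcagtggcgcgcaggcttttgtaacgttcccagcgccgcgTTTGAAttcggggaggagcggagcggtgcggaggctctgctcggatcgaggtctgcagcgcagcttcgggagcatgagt
CDC20: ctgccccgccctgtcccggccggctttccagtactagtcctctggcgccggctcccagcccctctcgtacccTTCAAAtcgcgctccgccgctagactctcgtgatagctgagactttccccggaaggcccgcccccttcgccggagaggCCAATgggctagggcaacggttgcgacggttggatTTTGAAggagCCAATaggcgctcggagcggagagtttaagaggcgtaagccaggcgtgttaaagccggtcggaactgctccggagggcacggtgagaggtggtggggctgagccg
ERCC6L held 1 TTTGAA, far upstream of the start, and 3 CCAAT. PLK1 held 1 TTTGAA, with its first base at -29 from the start, and 1 CCAAT. CDC20 held 2 TTTGAA and 2 CCAAT. The higher and the lower gene thus both carried these letters.

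RefSeq promoters were at hand for 41 of the 51 genes. TTTGAA or its variant TTCGAA stood on either strand in 22 of the 41 (53.7%), against 13.5% of 15843 promoters of protein-coding genes. CCAAT stood in 26 (63.4%), against 36.4% of all promoters, and both kinds together in 16 (39.0%), against 5.57%. None of these letters stood in 9 of the 41 (21.95%), which were DSN1, NSL1, CENPB, MAD1L1, CENPE, CENPI, CENPP, CENPT and CENPV, against 55.7% of all promoters. A match is a description of the letters and says nothing of binding in these spheroids.

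Of the centromeric chromatin genes, CENPB, whose protein binds a short motif in the alpha-satellite DNA of centromeres, had more reads over both libraries than any other of the 51 genes. It had 1552 reads in TGS24 and 1256 in Control, which gave a log2 ratio of -0.64 (interval -0.79 to -0.49), lower in TGS24 by less than 2-fold. Centred within GC classes it was -0.24 (interval -0.40 to -0.09), and its transcript, at 66.2% GC, was the richest in GC of the 26. CENPA, the histone variant that marks the centromere, had 10 reads in TGS24 and 0 in Control. With 3 reads set in place of the 0 in Control, the ratio would be 1.73-fold. That floor counts reads and takes the 10 reads as exact, so it is not a lower bound. The counting interval, on read pairs, had its lower end at -1.07 on the log2 scale, and at this depth a difference could not be shown.

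The inner kinetochore genes were close to the limit of detection in both libraries. The 13 genes summed to 106 reads in TGS24 and 72 in Control, and only CENPI, CENPP and CENPT reached 20 reads. CENPT, which links the inner kinetochore to Ndc80, had 8 reads in TGS24 and 14 in Control, with a log2 ratio of -1.48 whose interval ran from -3.97 to 0.22. Exons of NUTF2, THAP11 and TSNAXIP1 on the opposite strand cover 19.6% of the CENPT exon bases. CENPI had 16 and 14 reads, a log2 ratio of -0.67 (interval -2.41 to 0.94). CENPP had 32 and 20 reads, a log2 ratio of -0.25 (interval -1.50 to 1.03), and 42.7% of its exon bases are shared with genes on the opposite strand, NOL8 and IPPK among them. Each of these intervals held 0.

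The other 10 inner kinetochore genes had at most 10 reads in either library. CENPC, the scaffold that binds CENP-A nucleosomes, had 2 reads in TGS24 and 3 in Control. CENPK had 10 and 4 reads, CENPL 8 and 4, CENPN 8 and 6, CENPM 4 and 4, and CENPO 8 and 1. CENPH, CENPQ and CENPW had 2, 4 and 4 reads in TGS24 and 0 in Control, and CENPU had 0 in TGS24 and 2 in Control. Over the 13 genes the log2 ratio of the summed reads was -0.39 (interval -1.03 to 0.27).

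Among symbols that belong to the set by name, CENPV, which encodes a protein first described at centromeres and the midzone, had 406 reads in TGS24 and 153 in Control. Its log2 ratio was 0.46 (interval 0.07 to 0.85), and 0.91 (interval 0.52 to 1.30) when centred within GC classes. Exons of PIGL on the opposite strand cover 8.96% of its exon bases. CENPBD1 had 2 reads in TGS24 and 0 in Control.

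The complexes that hold the microtubule had few reads. None of the 4 Mis12 complex genes reached 20 reads: NSL1 had 4 reads in TGS24 and 10 in Control, DSN1 had 4 and 2, MIS12 had 6 and 0, and PMF1 had 3 and 0. Exons of the PMF1-BGLAP readthrough gene cover 23.3% of the PMF1 exon bases, where a counter may drop reads. In the KNL1 complex CASC5, the gene of KNL1, which docks the BUB proteins, had 44 reads in TGS24 and 16 in Control, with a log2 ratio of 0.48 (interval -0.71 to 1.89), and ZWINT had 6 and 1.

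All 4 Ndc80 complex genes had more reads in TGS24, which was the deeper library. NDC80, whose protein makes the contact with the microtubule, had 57 reads in TGS24 and 16 in Control, with a log2 ratio of 0.83 (interval -0.25 to 2.25). NUF2 had 12 reads in TGS24 and 2 in Control, SPC24 had 4 and 0, and SPC25 had 1 and 0. Summed over the complex this was 74 reads in TGS24 and 18 in Control, 4.53 and 2.12 CPM, which gave a log2 ratio of 1.09 (interval 0.02 to 2.33). The sum rests mostly on NDC80, which alone did not pass. Centred within GC classes, the NDC80 log2 ratio was 0.17 (interval -0.92 to 1.59), and the sum itself was not centred.

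The Ska complex, which helps Ndc80 to follow shrinking microtubules, was represented mainly by SKA2, with 98 reads in TGS24 and 62 in Control. The SKA2 log2 ratio was -0.28 (interval -0.96 to 0.41), and -1.07 (interval -1.76 to -0.38) when centred within GC classes, which is past the threshold. SKA1 had 4 and 3 reads and SKA3 had 12 and 2.

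On the fibrous corona, the motor gene CENPE had 65 reads in TGS24 and 37 in Control, a log2 ratio of -0.13 (interval -1.01 to 0.75), or -1.04 (interval -1.91 to -0.16) centred within GC classes. CENPF had 35 and 19 reads, a log2 ratio of -0.06. The RZZ complex recruits MAD1 and dynein to the corona. Its genes ZW10, with 80 reads in TGS24 and 32 in Control, and KNTC1, with 23 and 9, both had log2 ratios of 0.36 with intervals that held 0, and ZWILCH had 9 and 8 reads.

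Checkpoint genes fell into BUB3 and CDC20, with many reads, and the rest, with few. BUB3, which carries BUB1 and BUBR1 to phosphorylated KNL1 and was among the 51 genes second in reads to CENPB, had 1655 reads in TGS24 and 720 in Control. Its log2 ratio was 0.25 (interval 0.08 to 0.44), and -0.38 (interval -0.56 to -0.19) when centred within GC classes, so that its direction depends on that choice. CDC20, the APC/C activator held back by the checkpoint, had 518 reads in TGS24 and 390 in Control, a log2 ratio of -0.53 (interval -0.81 to -0.26), and its centred interval held 0, from -0.45 to 0.09. Neither reached 2-fold.

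For the other checkpoint genes a difference between the libraries was not detectable at this depth. BUB1, a kinase that marks centromeric histone H2A, had 35 reads in TGS24 and 17 in Control, a log2 ratio of 0.09 (interval -1.17 to 1.39). BUB1B, which encodes BUBR1, had 25 and 6 reads, a log2 ratio of 0.96 (interval -0.69 to 3.62). Exons of BUB1B-PAK6 on the same strand cover 10.2% of its exon bases. MAD2L1, which encodes the MAD2 protein that captures CDC20, had 30 and 13 reads, with 0.24. MAD1L1 had 23 and 12 reads, with -0.01, and its sign changed with the scaling. TTK, the MPS1 kinase that starts checkpoint signalling, had 12 and 4 reads, under the minimum of 20. Summed over these 5 genes the reads were 125 in TGS24 and 52 in Control, a log2 ratio of 0.32 (interval -0.35 to 1.05). With BUB3 and CDC20, which lay on opposite sides of 0 and held most of the reads, the 7 genes summed to 2298 reads in TGS24 and 1162 in Control, a log2 ratio of 0.04 (interval -0.11 to 0.18).

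In the chromosomal passenger complex, which corrects wrong attachments, the kinase gene AURKB had 30 reads in TGS24 and 4 in Control. Its log2 ratio of 1.66 was second to that of ERCC6L among the 26 compared genes, but the interval ran from -0.14 to 5.13. Centred within GC classes it was 1.94 with an interval from 0.13 to 5.41, which counts as higher. The scaffold gene INCENP had 109 and 51 reads, a log2 ratio of 0.15 (interval -0.56 to 0.87), and CDCA8, which encodes borealin, had 24 and 25, a log2 ratio of -0.93 (interval -2.32 to 0.19). BIRC5, which encodes survivin, had 4 and 1 reads.

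SGOL1, which encodes the shugoshin that protects centromeric cohesin, had 48 reads in TGS24 and 11 in Control, a log2 ratio of 1.09 (interval -0.27 to 2.64). An antisense gene covers 17.7% of its exon bases. SGOL2 had 44 and 19 reads, a log2 ratio of 0.25 (interval -0.95 to 1.43). AURKA, the centrosomal Aurora kinase, had 12 reads in each library, a log2 ratio of -0.82 (interval -2.85 to 0.96).

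**Figure D2:**
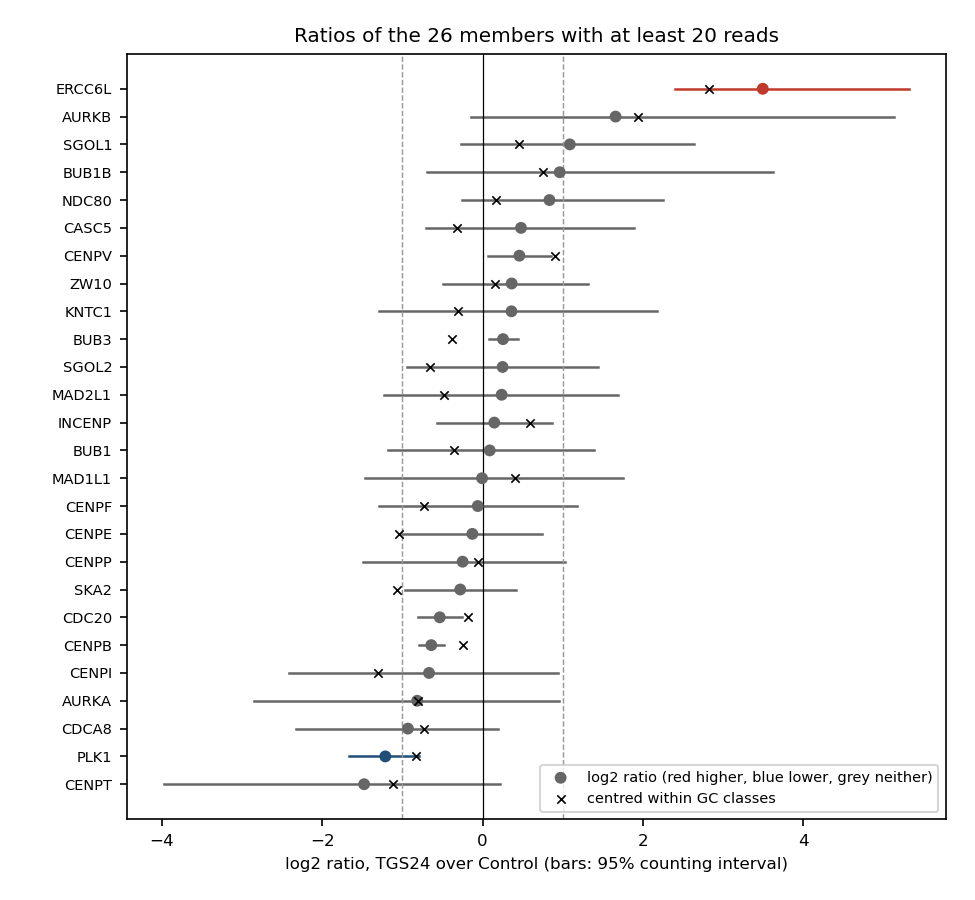
Log2 ratio of TGS24 over Control for the 26 genes with at least 20 reads, with 95% counting intervals as bars, dashed lines at 2-fold, and crosses for ratios centred within GC classes. ERCC6L at 3.49 and PLK1 at -1.21 are the genes whose value lies past a dashed line with an interval that leaves out 0.

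The counting depth set what could be seen. The interval left out 0 for 3 genes above it, ERCC6L, CENPV and BUB3, where 23.7% of all compared genes did so, and for 3 below it, CENPB, CDC20 and PLK1, where 17.3% did. These are the 6 genes with at least 200 reads over both libraries, and together they held 82.1% of the read pairs of the set in TGS24 (exact binomial interval 80.6% to 83.5%) and 85.1% in Control (83.2% to 86.8%). With its Control reads as they are, 10 of the 51 genes would have had an interval above 0 at a level 2-fold higher in TGS24 or less. Another 32 genes with a Control read needed more than 2-fold, and 14 of these more than 4-fold. The remaining 9 genes were at 0 in Control.

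The genes at 0 in Control were CENPA, CENPH, CENPQ, CENPW, CENPBD1, MIS12, PMF1, SPC24 and SPC25. Thinned on paper to 51.9% of its read pairs, the TGS24 library matches the Control depth. Then 45.4 of the 51 genes (89.1%) would still be expected to have a read, against 42 (82.4%) seen in Control. For all protein-coding genes the same figures were 76.3% expected for TGS24 and 76.0% seen in Control. No spread was computed for these figures, and the gap was not tested. The 25 genes under 20 reads together had 143 reads in TGS24 and 57 in Control, which gave a log2 ratio of 0.38 (interval -0.27 to 1.04), and the reads of all protein-coding genes with 1 to 19 reads gave -0.08 (interval -0.11 to -0.05).

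Levels between genes were compared per kilobase of the longest coding transcript. In TGS24, CENPB stood highest at 33.5 CPM per kilobase, then CENPV at 21.3, CDC20 at 17.9 and BUB3 at 12.95, then PLK1 at 4.62 and ERCC6L at 3.44. In Control the order was CENPB at 52.2, CDC20 at 25.9, CENPV at 15.5, BUB3 at 10.9, PLK1 at 10.8 and SKA2 at 2.61, while ERCC6L was at 0.27. Of the other genes none exceeded 2.15 in TGS24. Within the Ndc80 complex, the RNA of NDC80 was at 1.61 in TGS24 and that of SPC25 at 0.05. The SPC25 value rests on 1 read, too few to compare levels within the complex.

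The authors' deposited table of calls holds 3 of the 51 genes, out of the 41 in their filtered table, where 5.25% of all filtered genes were called. ERCC6L is listed there as higher, with a log2 ratio of 3.67, CENPO as higher with 2.06, and NSL1 as lower with -2.26 in the authors' deposited table. CENPO and NSL1 rest on 8 and 1 and on 4 and 10 reads in TGS24 and Control, and their counting intervals here ran from -2.28 to 6.68 and from -5.66 to 0.34. CENPO also shares 31.4% of its exon bases with ADCY3 and PTRHD1 on the opposite strand. PLK1 is not among the authors' called genes. The 3 that are have deposited log2 ratios of at least 2.06 in size, while the threshold here was 1.

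The ratios of all genes went with the GC content of the transcript. The median GC content was 42.8% for the 26 genes and 47.7% for all compared genes. The median ratio of all genes was 0.91 in the lowest of 20 GC classes and -0.40 in the highest. The correlation with GC content was -0.29 (Spearman) and -0.31 (Pearson) over the 26 genes, which share both libraries, and -0.46 and -0.42 over 9961 genes, and the difference between these was not tested. The 13 genes lowest in GC had a median log2 ratio of 0.25 and the 13 highest one of -0.25.

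Set against genes of like GC content, 17 of the 26 lay below the median of their class and 9 above it, and the median of the centred ratios was -0.31. By this measure 2 genes were higher, ERCC6L at 2.83 and AURKB at 1.94, where 5.37% of all genes were, and 2 were lower, CENPE at -1.04 and SKA2 at -1.07, where 6.04% were. CENPE and SKA2 have AT-rich transcripts, of 35.3% and 37.4% GC, among which most genes stood higher in TGS24. PLK1 is GC-rich, at 57.3%, and left the threshold. The part of GC content in the single ratios was not tested beyond this centring.

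**Figure D3:**
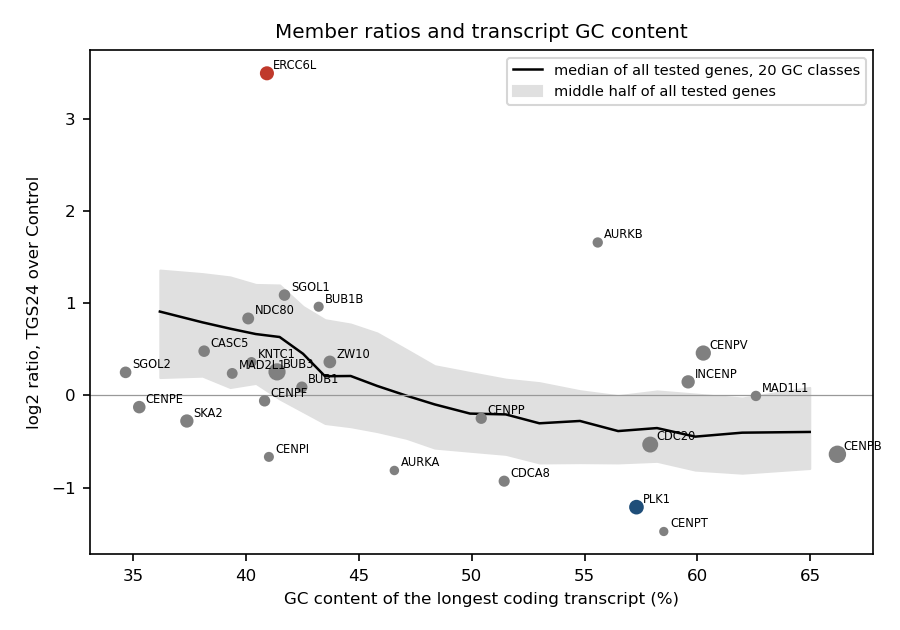
Log2 ratio of TGS24 over Control against the GC content of the longest coding transcript for the 26 genes with at least 20 reads (larger points have more reads), with the median (line) and the middle 50% (band) of all compared genes in 20 GC classes. ERCC6L stands far above the band at 40.9% GC, and CENPE and SKA2 lie below it although their raw ratios are close to 0.

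Genes that work with the kinetochore were compared in 5 lists. Of 52 such genes 41 had enough reads, and 12 were higher, 2 lower and 27 neither, with a median log2 ratio of 0.34. The shares over all compared genes were 12.7% and 6.44%, and their median log2 ratio was -0.0042. Of the APC/C subunits, ANAPC10 (561 reads in TGS24 and 69 in Control, log2 ratio 2.06), ANAPC1 (1252 and 246, 1.40) and CDC27 (4332 and 929, 1.27) were higher and the RING subunit gene ANAPC11 (88 and 101, -1.12) was lower, with the other 7 of 11 in neither direction. ESPL1, the gene of separase, which cuts cohesin once CDC20 has activated the APC/C, had 67 and 15 reads and a log2 ratio of 1.14 whose interval began just above 0, and was the single one of 8 APC/C partners and targets to pass. PTTG1, its inhibitor securin, had 3 and 0 reads.

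Among spindle assembly genes 4 of 10 were higher and 1 was lower, where 12.7% and 6.44% of all compared genes were. The midzone bundler PRC1 had 134 reads in TGS24 and 20 in Control, a log2 ratio of 1.73. Its partner, the chromokinesin KIF4A, had 552 and 96 reads, a log2 ratio of 1.56. CKAP5, a microtubule polymerase, had 6079 and 1072 reads, also 1.56, and the midzone motor KIF23 had 474 and 95, with 1.36. NUMA1, which anchors spindle poles, was lower, on 89 and 101 reads, at -1.11. These ratios are of genes outside the 51.

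Of 9 compared genes of checkpoint silencing and corona partners, the microtubule depolymerase gene KIF2C (167 reads in TGS24 and 32 in Control, log2 ratio 1.40) and CLASP2 (982 and 188, 1.43) were higher. The chaperone and chromatin genes listed for CENP-A deposition had 3 compared members, of which NPM1 (4034 and 638, 1.71) and RBBP7 (13877 and 3415, 1.08) were higher. By this measure, without centring, 12.7% of all compared genes were higher. NPM1 has near-identical pseudogene copies between which a counter can split reads. Genes dedicated to CENP-A loading had few reads, with 4 reads in TGS24 and 2 in Control for HJURP, 2 and 2 for MIS18A and 0 and 2 for OIP5. Centred within GC classes, 8 of the 41 were higher (ANAPC1, ANAPC10, ESPL1, NPM1, KIF2C, PRC1, CKAP5 and KIF4A) and 0 lower, with 5.37% and 6.04% of all genes past the threshold in these directions. A difference between these lists and the 51 genes was not tested.

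**Figure D4:**
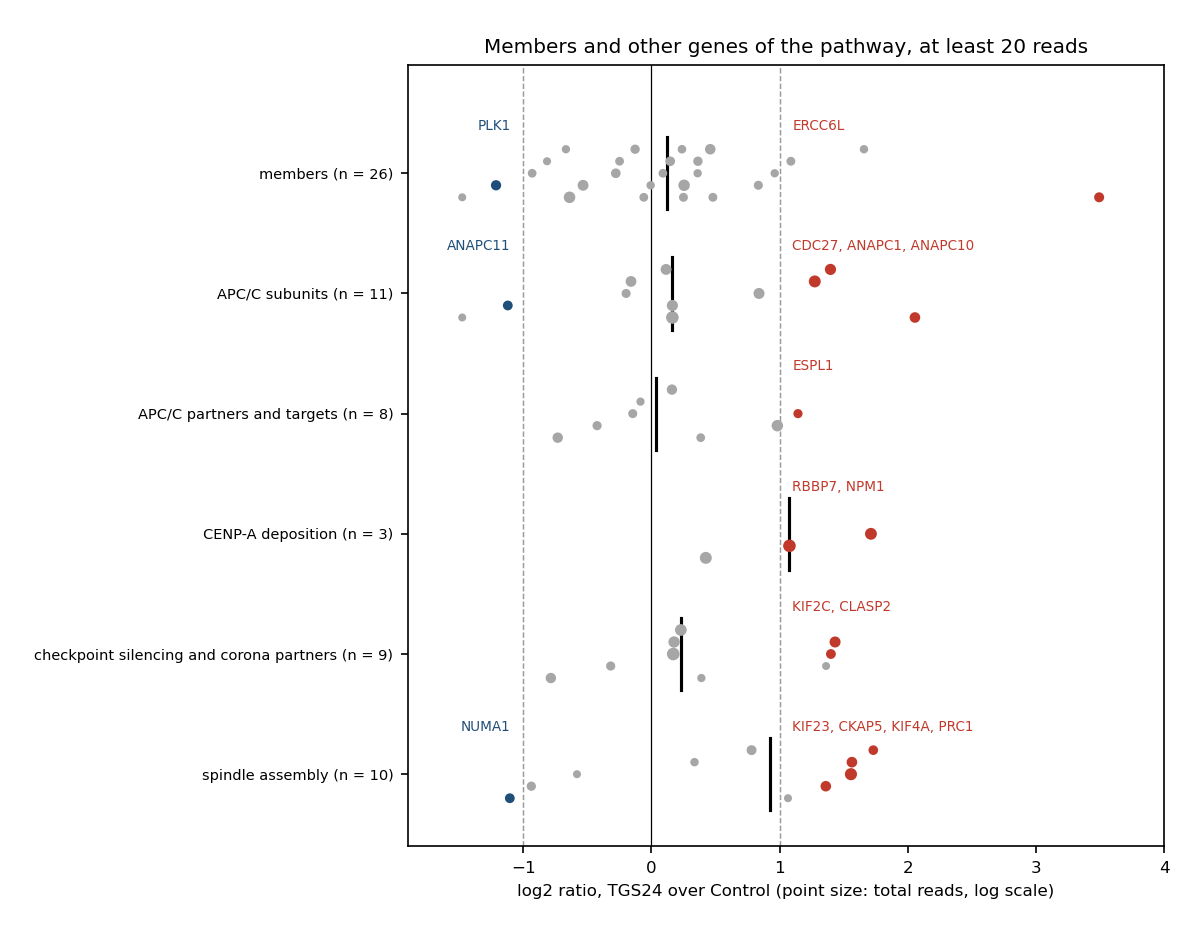
Log2 ratio of TGS24 over Control for the 26 compared kinetochore genes (top row) and the 5 lists of genes that work with them, with red points for at least 2-fold higher, blue for lower, grey for neither, and black bars for medians. The top row has 1 red and 1 blue point around a median of 0.12, and the spindle assembly row has 4 red points and 1 blue.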

How the data were processed

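RNA was measured in 1 TGS24 and 1 Control spheroid library, grouped by the labels. The build hg19 and the tools DESeq2, featureCounts 1.5.2, STAR, Bowtie2 2.2.4 and Trimmomatic are named in the submitters' processing notes, with no role or order. The authors deposited normalized signal values, that is, the counts of each library divided by its size factor (1.98 for TGS24 and 1.03 for Control), so that whole reads could be recovered for 99.98% of values in each column within a relative tolerance of 1e-06. The ratio columns are the authors' fold changes of TGS24 over Control, and the deposited log2 values are their logarithm. In the filtered table that log2 column was treated as a score, since a closing line holds the authors' sum. From the table of all genes 48 irregular rows were left out, repeated or out of order, not whole reads, or unlike the other tables, and none of the 51 genes was among them.

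Reads were scaled with TMM factors (edgeR 4.0.16, R 4.3.3). Log2 ratios of single genes used a prior count of 2, while intervals and ratios of summed reads used none. Counting intervals are 95% Clopper-Pearson intervals on read pairs, because 73.5% of TGS24 and 75.3% of Control counts above 0 were even. GC content and length are those of the longest coding transcript, and exon overlaps those of GENCODE v29 (GRCh38). The build differs from that of the files, so no gene coordinates from it are given; promoters are RefSeq's. Python 3.11.15 was used with scipy 1.17.1, numpy 2.4.6, pandas 2.3.3 and matplotlib 3.10.9. The code for the calls was run on simulated counts with counting error only and no GC trend. Changes were planted there only in protein-coding genes with at least 100 reads, so it does not cover genes with fewer. All 51 genes may be named; of the other lists, those past the 2-fold threshold, and any other was named after its values were seen. The genes and lists were chosen with earlier results of these data known. Protein sequences were not used here.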

Additional observations from a re-analysis of the deposited data

How the results depend on the processing

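No paired analysis was possible because each group held 1 library. The count of genes at least 2-fold higher in TGS24 was 1, and 2 with no filter on low counts, 2 when centred within GC classes and 3 with intervals on reads instead of read pairs. The count lower was 1, and 2 when centred within GC classes, 2 with intervals on reads and 2 with a 1.5-fold threshold, where CENPB joined PLK1. The median log2 ratio of 0.12 was 0.41 with no filter on low counts, and of the opposite sign with at least 100 reads, at -0.15, and centred within GC classes, at -0.31. The filter changes which genes enter, 51 without it and 10 with at least 100 reads. AURKB passed in 3 settings, no filter, GC centring and intervals on reads, and SGOL1 and CENPT passed with intervals on reads. Median-of-ratios scaling moved the median log2 ratio of all genes to 0.13 and that of the compared kinetochore genes to 0.25, and with no filter the median of all genes was 0.16. Higher genes made up 66.3% of all calls, 78.2% with median-of-ratios scaling, 75.7% with no filter and 47.1% centred within GC classes. The cause of these shifts was not tested. Among all the genes, counts over 1.5 times apart were 1277 higher against 535 when centred within GC classes and 1949 with a 1.5-fold threshold, and 649 lower against 1217 with that threshold and 410 with at least 100 reads.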
